A study of Mus musculus with 23 samples.

Results

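Xdh encodes xanthine dehydrogenase, the enzyme that oxidises hypoxanthine to xanthine and xanthine to uric acid at the end of purine breakdown. It was examined together with 8 genes of purine salvage and adenosine signalling in RNA-seq of mouse hippocampus. The 9 genes were Xdh, Gda, Pnp, Hprt, Aprt, Adk, Nt5e, Adora1 and Adora2a, out of 52636 genes in the count files. They were listed by name. Xdh was chosen by its difference between hypoxia and normoxia in these same libraries, so its levels are given as a description, with no test. Of the 9 genes, 8 passed the filter on low counts, which left 17788 genes tested, and 1 (Aprt) had no count in any library.

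The study compared wild-type (WT) mice and mice of the P301S genotype, each kept in normoxia or in hypoxia. P301S names a substitution in human tau that is known from inherited frontotemporal dementia. The title of the series names the exposure as chronic intermittent hypoxia and links it to the seeding and spread of tau. WT gave 6 libraries in each condition and P301S gave 5 in normoxia and 6 in hypoxia, all from mice of a mixed C57Bl6 and Balbc background. The sources used here do not give the promoter of the transgene, the regimen of hypoxia, or the age and sex of the mice. Whether the libraries of a group stem from different animals is not stated in the labels, so p-values cover the spread between libraries alone, which may be technical. Library depth was 19.1 to 25.8 M counts. The tissue is labelled as brain and the protocol names whole hippocampus. All 10 markers of hippocampal neurons had counts, and Prox1, a marker of dentate granule cells, lay between 89.5 and 178 CPM (read pairs per 1000000 counted in the library). Markers of the choroid plexus, a tissue that borders the hippocampus, summed to between 66.2 and 3616 CPM per library, and the 6 libraries lowest in them were 1 of WT normoxia, 3 of WT hypoxia and 2 of P301S hypoxia. All 10 had negative log2 differences with hypoxia in both genotypes, at medians of -0.94 in WT and -0.69 in P301S. None of these passed at an adjusted p below 0.05 by edgeR.

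Purine nucleotides are broken down to nucleosides and bases, and the bases are either salvaged or oxidised. Hprt and Aprt return bases to the nucleotide pool, whereas Xdh commits them to uric acid. Adenosine stands at the branch: it is formed outside cells from AMP by the ectoenzyme Nt5e (CD73), signals through receptors such as Adora1 and Adora2a, and is cleared inside cells by adenosine kinase (Adk). In the brain adenosine is known as a brake on synaptic transmission that builds up when oxygen is short. Xanthine dehydrogenase is known for its conversion to an oxidase that releases reactive oxygen, and in brain it is found mainly in blood vessels.

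Xdh was higher in hypoxia than in normoxia in both genotypes. The gene lies at chr17:73883908-73950182 on the minus strand (GRCm38) and overlaps no other annotated gene. In WT normoxia its level ran from 3.06 to 5.70 CPM, with a median of 4.77. In WT hypoxia it ran from 6.04 to 11.4 CPM, with a median of 8.22. Every WT hypoxia library thus lay above every WT normoxia library. In P301S normoxia the 5 libraries had 6.15, 3.35, 4.82, 5.45 and 4.41 CPM. In P301S hypoxia the level ran from 8.25 to 15.8 CPM, with a median of 10.5. Again no library of one condition reached the range of the other. Over both genotypes the 11 highest libraries were all hypoxia libraries, and the remaining hypoxia library, with 6.04 CPM, lay just under the highest normoxia library, with 6.15 CPM. These levels rest on 76 to 395 read pairs per library.

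**Figure D1:**
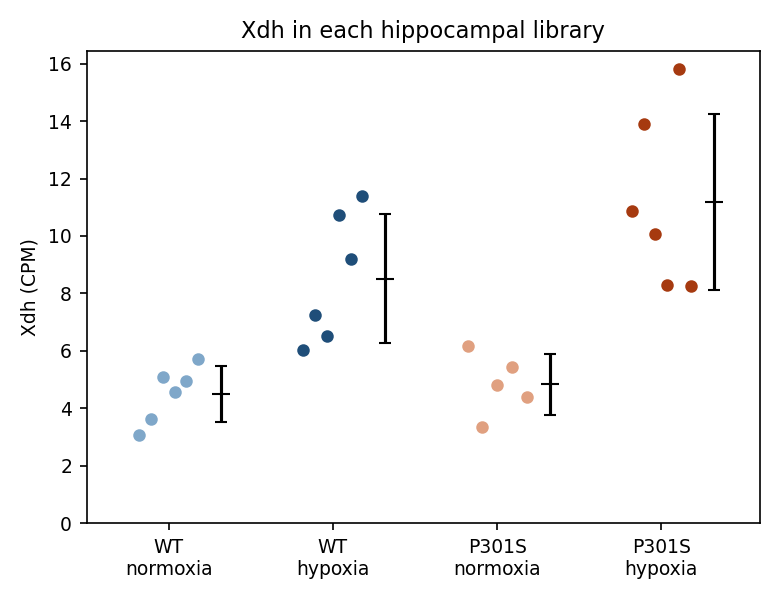
Xdh in CPM (vertical axis) in each library (points) of the 4 groups (horizontal axis), with the group mean and SD (bars). The WT hypoxia libraries lie between 6.04 and 11.4 CPM against 3.06 to 5.70 in WT normoxia, and the P301S hypoxia libraries between 8.25 and 15.8 against 3.35 to 6.15 in P301S normoxia.

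As group means, Xdh was at 4.50 ± 0.978 CPM in WT normoxia (SD, n = 6) and 8.52 ± 2.24 CPM in WT hypoxia (SD, n = 6), a ratio of 1.89. In P301S it was at 4.84 ± 1.06 CPM in normoxia (SD, n = 5) and 11.2 ± 3.06 CPM in hypoxia (SD, n = 6), a ratio of 2.31. The fitted log2 difference between hypoxia and normoxia was 0.92 (SE 0.201, 95% interval 0.50 to 1.34) in WT and 1.21 (SE 0.203, 95% interval 0.79 to 1.63) in P301S. Averaged over the genotypes it was 1.07 (SE 0.143). Xdh was chosen by this difference, so the intervals are a description and no test of it. A separation of this kind was uncommon: 0.298% of the tested genes had all WT hypoxia libraries above all WT normoxia libraries, and 1.01% had it in P301S. Only 6 genes, or 0.0337%, had it in both genotypes, and these were Rasal2, Dbp, Galnt15, Nr1d1, B4galt4 and Xdh. Since Xdh was listed for its difference with hypoxia, its presence among them is no independent evidence.

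The log2 differences of Xdh between the genotypes were smaller than those between the conditions. Since Xdh was chosen by its difference between the conditions, the choice itself favours this order, which is given as a description. In normoxia the log2 difference of P301S against WT was 0.10 (SE 0.226), and its 95% interval ran from -0.36 to 0.57. In hypoxia it was 0.39 (SE 0.179), with an interval from 0.02 to 0.77, and the libraries of the genotypes overlapped. The hypoxia difference was larger in P301S than in WT by 0.29 on the log2 scale, with an interval of that interaction from -0.31 to 0.89. A larger difference in P301S cannot be told from an equal one at this number of libraries. The interaction was 0.13 with the endothelial marker score as a covariate, 0.19 without P301S normoxia replicate 2 and 0.16 without P301S hypoxia replicate 5. Without the latter, the library with the highest level, the genotype difference in hypoxia was 0.26. Other alternatives raised both values. Without the 6 libraries lowest in choroid plexus markers the interaction was 0.42 and the genotype difference in hypoxia 0.52, the highest of all alternatives.

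Within WT hypoxia, the libraries varied in a way that can be set beside the numbers in their titles, whose meaning is not given. The 4 libraries that carry the number 31 ran from 6.04 to 10.7 CPM and the 2 that carry 32 had 9.18 and 11.4 CPM. In WT no title number occurs in both conditions, so whatever the number stands for cannot be told apart from hypoxia there. The WT normoxia libraries carry 66, except replicate 6, which carries 37, whereas the P301S libraries each carry a number of their own. It is not stated whether libraries that share a number stem from the same animal.

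In whole tissue, more RNA per cell and more cells of the type that holds the RNA cannot be told apart. Markers of endothelial cells, which line blood vessels, were therefore set beside Xdh. All 10 had counts, and their summed level overlapped between the conditions, at 220 to 278 CPM in WT normoxia, 236 to 311 in WT hypoxia, 221 to 268 in P301S normoxia and 231 to 304 in P301S hypoxia. By edgeR, 2 of the 10 rose with hypoxia in P301S and averaged over the genotypes, where 0.18% and 0.652% of all genes tested were called higher. They were Slc2a1, the glucose transporter of the blood-brain barrier (log2 difference averaged over the genotypes 0.36, SE 0.0628, adjusted p = 0.0059), and Mfsd2a, a lipid transporter of the same cells (0.35, SE 0.0835, adjusted p = 0.0349). Of the other 8, none was called: Cldn5 (-0.24, SE 0.105) and Tek (-0.25, SE 0.0946) had negative differences averaged over the genotypes and 6 had positive ones. The median log2 difference of the 10 was 0.14, against 0.00255 over all genes tested. With the endothelial marker score as a covariate, which was added after the data were seen, the log2 difference of Xdh was 0.80 in WT and 0.93 in P301S, the lowest of all alternatives. The score includes Slc2a1 and Mfsd2a, which rose with hypoxia themselves, so it does not measure endothelial content alone. The Slc2a1 call held under each of its 32 alternatives in the averaged comparison, whereas the Mfsd2a call was lost under 14 of 32. In P301S the calls were lost under 11 of 21 alternatives for Slc2a1 and 15 of 21 for Mfsd2a.

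The genes whose levels followed Xdh most closely were ranked by Pearson's r of log2 CPM over the 23 libraries, among the 13441 named genes, predicted names left out, whose mean reached 1 CPM. The highest was Hif3a, a hypoxia-inducible factor subunit, with r = 0.87. After it came Eva1a, a regulator of autophagy (0.84), Nr1d1, a repressor of the circadian clock (0.83), and Las1l, a factor in ribosome assembly (0.81). They were followed by the phospholipid flippase gene Atp10a (0.81), the phagocytosis receptor gene Mertk (0.81), Slc2a1 (0.79) and the clock output gene Dbp (0.79). These coefficients are a description: the libraries share the groups, and Xdh differs with hypoxia, so genes that differ with hypoxia are placed high by the ranking itself. With the group means removed, r ran from 0.41 for Nr1d1 to 0.59 for Hif3a. None of the other members was among the 8.

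Hif3a showed the largest log2 differences of these 8 genes. It was at 5.88 ± 2.79 CPM in WT normoxia (SD, n = 6), 12.9 ± 7.72 in WT hypoxia (SD, n = 6), 6.00 ± 1.37 in P301S normoxia (SD, n = 5) and 18.99 ± 6.27 in P301S hypoxia (SD, n = 6). Its libraries overlapped between the conditions in WT (3.75 to 10.8 against 6.24 to 27.4 CPM) and did not in P301S (4.99 to 8.37 against 12.3 to 29.6 CPM). Las1l stood at the other end, with a log2 difference averaged over the genotypes of 0.09 (SE 0.0254), so a high r did not need a large difference. The sources used here do not give the time of day at which tissue was taken, which bears on the clock genes Nr1d1 and Dbp. Parts of Slc2a1 (17.1% of its length), Nr1d1 (14.5%) and Dbp (14.4%) overlap other genes, where read pairs were dropped.

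**Figure D2:**
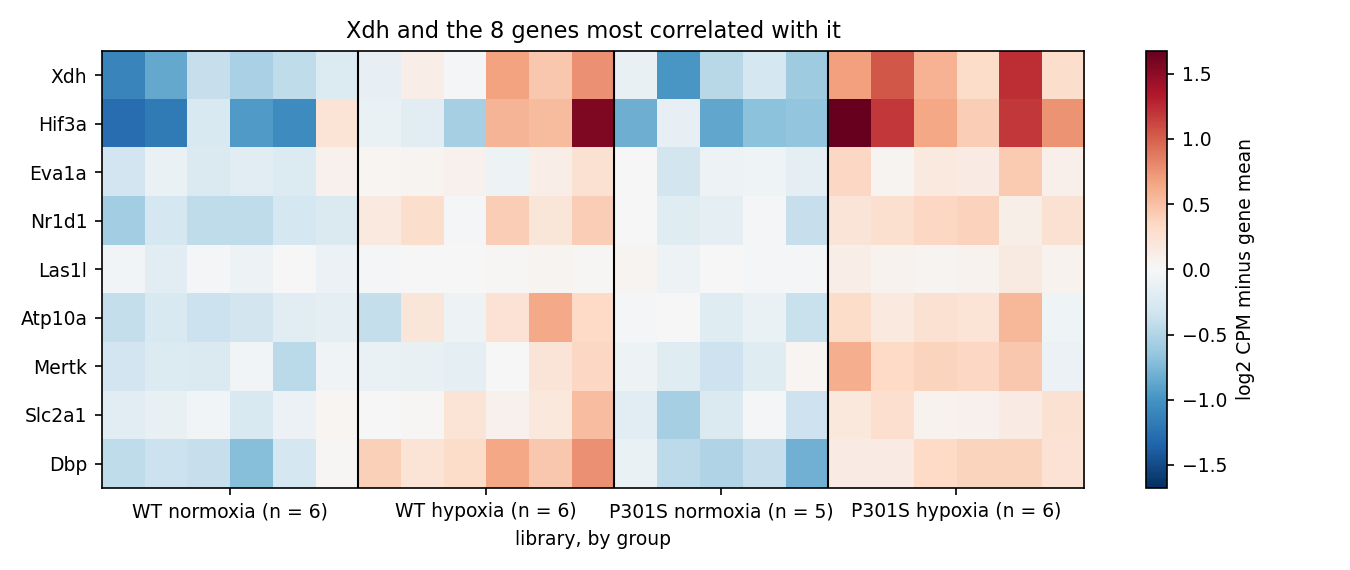
Heat map of log2 CPM minus the mean of each gene (colour scale) for Xdh and the 8 genes most correlated with it (vertical axis), with 1 column per library in the 4 groups (horizontal axis). Xdh and Hif3a span the widest range, and Las1l, with an averaged log2 difference of 0.09, is nearly flat.

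Among the members upstream of Xdh, guanine deaminase (Gda, chr19:21391307-21473445), which turns guanine into xanthine, was high and level across the groups. It ran from 190 to 280 CPM in WT normoxia (median 230), from 186 to 256 in WT hypoxia (median 241) and from 222 to 268 in P301S hypoxia (median 233). The 5 P301S normoxia libraries had 173, 243, 234, 222 and 249 CPM. All 4 ranges overlapped. The log2 difference with hypoxia was 0.01 in WT (95% interval -0.17 to 0.19) and 0.08 in P301S (95% interval -0.12 to 0.27).

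Purine nucleoside phosphorylase (Pnp), which splits inosine and guanosine to the bases that Xdh and Gda use, could be measured only as a locus. The row of the count files that covers the position of Pnp, chr14:50944302-50965237, carries the name Gm49342 in the annotation used here and also spans Pnp2, a near-identical copy. Other genes overlap 48.7% of it, so its count is uncertain. The locus ran from 5.15 to 7.42 CPM in WT normoxia (median 6.18), 5.05 to 6.52 in WT hypoxia (median 5.62) and 5.24 to 7.61 in P301S hypoxia (median 5.79). In P301S normoxia it had 6.50, 5.45, 6.45, 7.02 and 6.46 CPM, and the 4 ranges overlapped. Its log2 difference with hypoxia averaged over the genotypes was -0.10 (95% interval -0.27 to 0.06).

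Of the salvage genes, Hprt (chrX:52988137-53021659), which returns hypoxanthine and guanine to nucleotides and so competes with Xdh for hypoxanthine, did not pass the test in any comparison. It ran from 91.8 to 114 CPM in WT normoxia (median 104), 97.0 to 111 in WT hypoxia (median 107) and 87.7 to 112 in P301S hypoxia (median 96.2). In P301S normoxia it had 90.2, 107, 104, 99.2 and 107 CPM. The 4 ranges overlapped, and the log2 difference with hypoxia averaged over the genotypes was 0.01 (95% interval -0.08 to 0.10).

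Adk (chr14:21052574-21448569), which phosphorylates adenosine to AMP, was the steadiest member, with a coefficient of variation within groups of 4.56%. It ran from 39.6 to 47.7 CPM in WT normoxia (median 43.8), 41.9 to 47.0 in WT hypoxia (median 43.6) and 42.8 to 45.0 in P301S hypoxia (median 43.0). In P301S normoxia it had 43.4, 45.4, 40.1, 43.3 and 44.1 CPM. The groups overlapped throughout, and the interval of the log2 difference averaged over the genotypes, -0.05 to 0.08, is the narrowest of the members. Adk is a gene of 395996 bases, and removing the trend of each library with gene length and GC content moved its values: P301S against WT in normoxia went from -0.01 to -0.28, with an adjusted p of 0.0313 by edgeR.

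Aprt, the salvage enzyme for adenine at chr8:122574635-122576909, was not measured. Another annotated gene, Gm20388, overlaps 100% of it, and read pairs that fall on both were dropped, so its 0 counts in all 23 libraries say nothing about its expression.

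Nt5e (chr9:88327197-88372092), the ectoenzyme that forms adenosine from AMP, ran from 4.84 to 6.33 CPM in WT normoxia (median 5.203). In WT hypoxia it ran from 5.04 to 7.96 CPM (median 6.84), and 4 of the 6 libraries lay above all WT normoxia libraries. How many of all genes had such a partial separation was not counted. In P301S normoxia Nt5e had 4.69, 5.92, 4.95, 6.33 and 4.84 CPM, against 4.63 to 8.01 CPM in P301S hypoxia (median 5.72). The P301S groups thus overlapped widely. The log2 difference with hypoxia was 0.31 in WT (SE 0.128, 95% interval 0.05 to 0.58) and 0.16 in P301S (SE 0.134, 95% interval -0.11 to 0.44). Without P301S hypoxia replicate 5, which had 8.01 CPM, the P301S value was 0.06, with the endothelial marker score as a covariate it was 0.10, and without the 6 libraries lowest in choroid plexus markers it was 0.28. Averaged over the genotypes it was 0.24 (SE 0.0925), with an adjusted p of 0.21 by edgeR, and it is reported as not called.

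Adora1 (chr1:134199223-134235431), the inhibitory adenosine A1 receptor, had its highest levels in P301S hypoxia. It ran from 191 to 253 CPM in WT normoxia (median 216) and from 182 to 223 in WT hypoxia (median 206), with overlap. In P301S normoxia it had 222, 203, 195, 188 and 210 CPM, and in P301S hypoxia it ran from 197 to 258 (median 242). Of the 6 P301S hypoxia libraries, 5 lay above every P301S normoxia library and every WT hypoxia library, while the WT normoxia libraries overlapped them. The share of all genes with such a pattern was not counted. The log2 difference with hypoxia was -0.10 in WT (SE 0.0722, 95% interval -0.25 to 0.05) and 0.22 in P301S (SE 0.0758, 95% interval 0.06 to 0.37), with an adjusted p of 0.19 by edgeR in P301S. The test of the difference between the genotypes gave an interaction of 0.32 (SE 0.105, 95% interval 0.10 to 0.53), also not called by edgeR, at an adjusted p of 0.35. P301S against WT in hypoxia was 0.21 (SE 0.0722), with an adjusted p of 0.13 by edgeR. With a striatal marker score as a covariate, the interaction was 0.18, the genotype difference in hypoxia 0.09 and the WT difference -0.01. This alternative was added after the data were seen. Of the 10 striatal markers, Ppp1r1b was called lower and Rarb higher in P301S than in WT in normoxia by edgeR. In hypoxia none was called, at a median log2 difference of -0.38 between the genotypes. The score is thus not independent of the genotype. Without P301S hypoxia replicate 5 the interaction was 0.36 and the genotype difference in hypoxia 0.24, the highest of all alternatives. The WT difference ran from -0.15 to -0.01 over the alternatives. The gene Mybph overlaps 5.55% of Adora1.

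Adora2a (chr10:75316877-75334784), a stimulatory adenosine receptor, which couples to cyclic AMP production and is known for its abundance in the striatum, was the scarcest member, with 15 to 107 read pairs per library. It ran from 0.967 to 2.02 CPM in WT normoxia (median 1.36), 1.47 to 4.39 in WT hypoxia (median 1.78) and 1.45 to 2.39 in P301S hypoxia (median 1.59). In P301S normoxia it had 2.15, 0.644, 1.71, 1.26 and 0.787 CPM. The ranges overlapped in both genotypes. The log2 difference with hypoxia was 0.67 in WT (SE 0.278) and 0.40 in P301S (SE 0.309, 95% interval -0.23 to 1.04). Averaged over the genotypes it was 0.54 (SE 0.208, 95% interval 0.11 to 0.96), with an adjusted p of 0.20 by edgeR.

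The WT value of Adora2a rested in part on 1 library. WT hypoxia replicate 2 had 4.39 CPM, the highest of the 23 libraries, and the next highest had 2.39. The same library held rank 1 for the striatal markers Gpr6 (1.93 CPM), Rgs9 (44.0 CPM) and Tac1 (7.71 CPM), rank 2 for Drd1 and Penk, and rank 4 for Drd2. The listed markers Ppp1r1b, Rarb and Foxp1 were not ranked. With hypoxia in WT, 7 of the 10 striatal markers had a positive log2 difference and none was called. Those of Drd2 (-0.10), Ppp1r1b (-0.21) and Foxp1 (-0.10) were negative. The summed level of the 10 striatal markers, all with counts, ran from 154 to 180 CPM in WT normoxia and 159 to 209 in WT hypoxia. In P301S it ran from 149 to 179 CPM in normoxia and 141 to 168 in hypoxia. Without WT hypoxia replicate 2 the log2 difference of Adora2a was 0.33 in WT and 0.37 averaged over the genotypes. With the striatal marker score as a covariate it was 0.39 in WT, and without the 6 libraries lowest in choroid plexus markers 0.88. In P301S it ran from 0.24 to 0.64 over the alternatives, while 4 of the 10 striatal markers had a positive difference with hypoxia there, with a median of -0.07. The cause of the Adora2a differences was not tested.

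**Figure D3:**
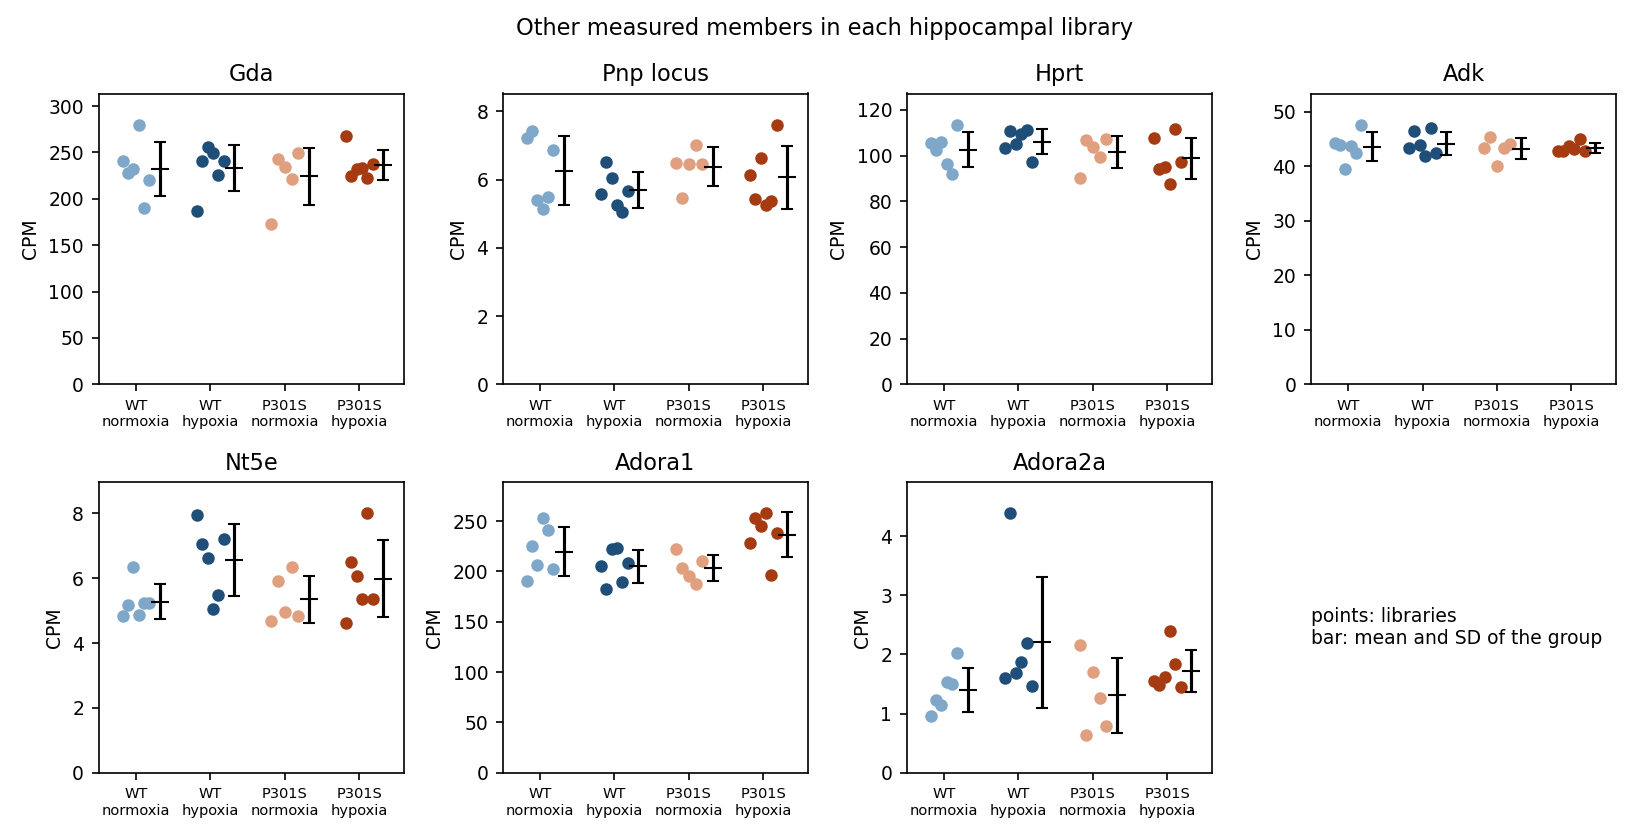
CPM (vertical axes, each from 0) of the 7 other measured genes in each library (points) of the 4 groups (horizontal axes), with group mean and SD (bars). The ranges of the groups overlap in each panel between normoxia and hypoxia of a genotype, and WT hypoxia replicate 2 stands apart in Adora2a at 4.39 CPM.

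Across the 6 comparisons, none of the 7 measured members other than Xdh was called by edgeR at an adjusted p below 0.05, and DESeq2 called none either. At an unadjusted p below 0.05 there were 2 in WT with hypoxia, 1 in P301S with hypoxia, 2 in the average of the genotypes, 0 for P301S against WT in normoxia, 1 in hypoxia and 1 for the interaction. At that threshold the shares of all genes tested were, in the same order, 11.6%, 13.8%, 16.0%, 22.8%, 18.2% and 9.43%. The shares called at the adjusted p were 0.0731% for hypoxia in WT, 0.41% for hypoxia in P301S and 1.33% for hypoxia averaged over the genotypes. They were 6.35% for P301S against WT in normoxia, 1.87% in hypoxia and 0.0394% for the interaction. With shares so low, 0 of 7 is no departure from the background in any of these comparisons. The median log2 difference of the 8 measured members with hypoxia averaged over the genotypes was 0.05, against 0.00255 over all genes tested. The 8 include Xdh, which was chosen by this difference, so the 2 medians are a description and no test.

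**Figure D4:**
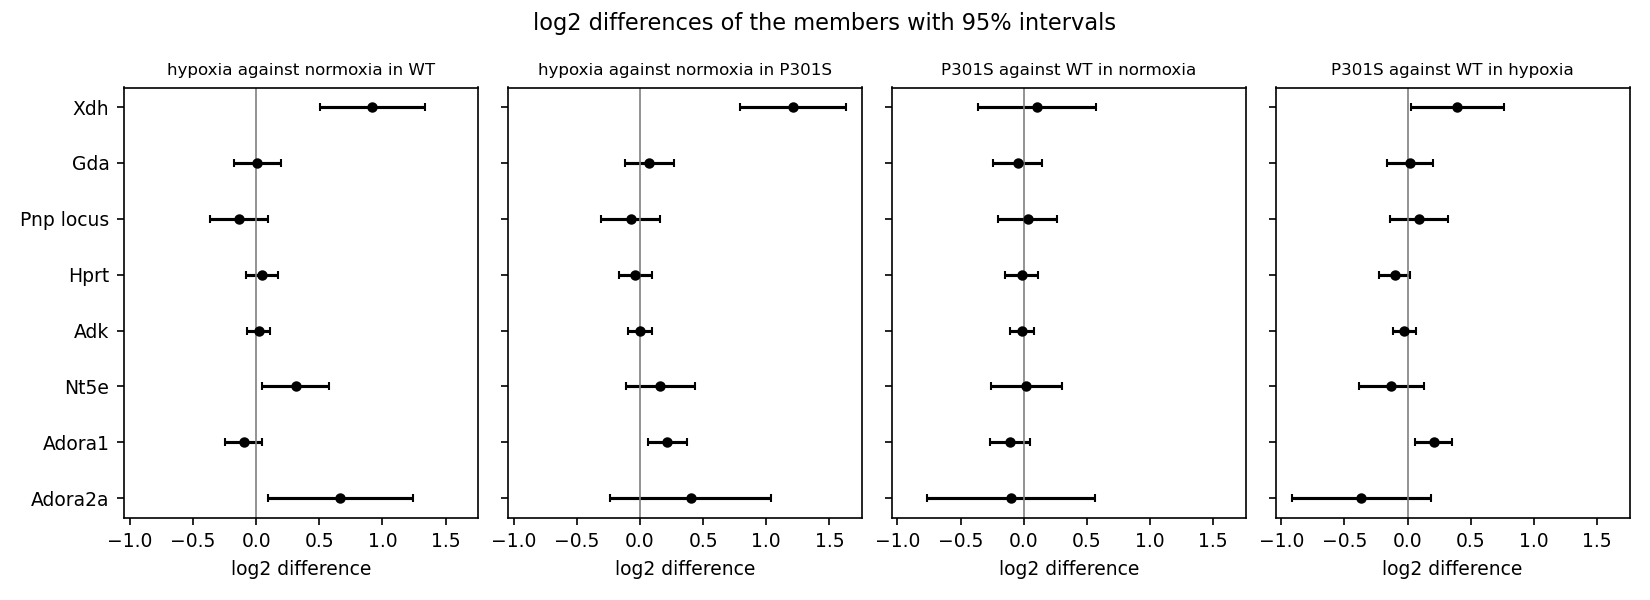
Fitted log2 differences (horizontal axes) with 95% intervals (bars) of the 8 measured genes (vertical axis) in 4 comparisons. Xdh, which was chosen by this difference and is shown as a description, has 0.92 for hypoxia in WT and 1.21 in P301S, while Gda, the Pnp locus, Hprt and Adk lie near 0 in all 4 panels.

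Levels of different genes were compared per length, as CPM per kilobase of exon over all 23 libraries, without the Pnp locus. Hprt was highest at 79.4 ± 5.74 (SD, n = 23). Adora1 at 37.5 ± 3.95 and Gda at 37.2 ± 3.89 followed and did not differ beyond their spread. Adk stood at 5.12 ± 0.221. Xdh at 0.803 ± 0.374, Nt5e at 0.676 ± 0.119 and Adora2a at 0.547 ± 0.239 formed the low end, and their order changed with the group. In WT normoxia Xdh was at 0.491 ± 0.107 (SD, n = 6), under Nt5e at 0.614 ± 0.0635 (SD, n = 6), and in P301S hypoxia it was above Nt5e, at 0.696 ± 0.137 (SD, n = 6). Read pairs in introns are in the counts, so genes with long introns such as Adk are placed too high on this scale. On it, Hprt was far above Xdh in every group: in P301S hypoxia, where Xdh was highest, Hprt had 76.7 ± 6.94 (SD, n = 6) and Xdh 1.22 ± 0.334 (SD, n = 6).

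The rest of the pathway was read from 8 lists with 67 further genes, of which 60 were tested. With hypoxia in WT and in P301S edgeR called 0 of the 60, with 8 and 10 at an unadjusted p below 0.05, near the background shares of 11.6% and 13.8%. DESeq2 called 0 of them in WT, out of 151 genes called in all, and 1, Dck, in P301S, out of 363. Averaged over the genotypes, edgeR called 1 higher and none lower, where 0.652% of all genes tested were called higher by edgeR. DESeq2 called Dck and Adcy1, out of 651 genes called in all, against 236 by edgeR. The edgeR call was Dck, deoxycytidine kinase, a salvage enzyme for deoxynucleosides, which rose, with a log2 difference of 0.19 (SE 0.0463, adjusted p = 0.0354). It was at 18.1 ± 1.26 CPM in WT normoxia (SD, n = 6) and 20.005 ± 1.38 in WT hypoxia (SD, n = 6), and at 17.3 ± 1.76 in P301S normoxia (SD, n = 5) and 20.4 ± 0.907 in P301S hypoxia (SD, n = 6). The direction held under all 32 alternatives, but the call was lost under 17 of them.

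Aox1, aldehyde oxidase, a relative of Xdh that uses the same molybdenum cofactor, was at 18.6 ± 3.33 CPM in WT normoxia (SD, n = 6) and 17.9 ± 2.57 in WT hypoxia (SD, n = 6). In P301S it was at 18.2 ± 2.94 CPM in normoxia (SD, n = 5) and 18.6 ± 2.03 in hypoxia (SD, n = 6). Its log2 difference with hypoxia averaged over the genotypes was -0.01 (SE 0.0852). None of the 6 genes that make the molybdenum cofactor or use it beside Xdh was called in a hypoxia comparison, and their median averaged over the genotypes was -0.00191. In the list of purine breakdown, adenosine deaminase (Ada) had 0.12 (SE 0.114). All 11 genes of de novo purine synthesis had a positive difference averaged over the genotypes, with a median of 0.04 against 0.00255 over all genes. In WT 10 of them were positive and in P301S 8, and none of the 11 was called in these comparisons. The share of all genes with a positive difference was not counted.

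Between the genotypes, edgeR called 3 of the 60 lower and none higher in P301S than in WT in normoxia, where 3.78% of all genes tested were called lower. They were Impdh2, which makes xanthosine monophosphate on the way to GMP (log2 difference -0.19, SE 0.0462, adjusted p = 0.0193), Gart, an enzyme of early purine synthesis (-0.15, SE 0.0438, adjusted p = 0.0385), and the adenylate kinase Ak1 (-0.20, SE 0.0592, adjusted p = 0.0483). The call was lost under 4 of 21 alternatives for Impdh2, 11 for Gart and 12 for Ak1. DESeq2 called these 3 and Suox, out of 1639 genes called in all, against 1130 by edgeR. In hypoxia, 2 of the 60 were called higher in P301S than in WT and none lower, where 0.528% of all genes tested were called higher. These were Slc29a3, an intracellular nucleoside transporter (0.36, SE 0.0848, adjusted p = 0.0285), and Kcnj6, a potassium channel subunit opened through A1 receptors (0.35, SE 0.0923, adjusted p = 0.0475). Their calls were lost under 10 and 13 of 22 alternatives. DESeq2 called both and a further 5, Ak1, Dguok, Gnas, Pde10a and Pde1b, of which Ak1 (-0.19 by edgeR) and Pde1b (-0.17 by edgeR) were lower in P301S. In that comparison DESeq2 called 854 genes in all, against 333 by edgeR. For the interaction edgeR called 0 of 60, with 4 at an unadjusted p below 0.05 against 9.43% of all genes tested. DESeq2 called 1, Gnas, out of 52 genes called in all, against 7 by edgeR.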

How the data were processed

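RNA-seq counts of 23 mouse hippocampus libraries were used. Genotype and condition labels gave the 4 groups, and replicate numbers, given in accession order, only name a library. The authors counted read pairs per gene with featureCounts 1.6.2, and these raw counts were deposited with no normalization, per the file headers. The headers give whole gene bodies (introns included), the Ensembl release 90 annotation, no strand setting, and input files named as free of duplicates. That tool by default drops read pairs overlapping more than 1 gene. The submitters' processing notes name HISAT2, mm10 and DESeq2 1.6.3. The kit is stranded per the labels' protocols.

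Symbols and exon lengths came from GENCODE release M21, which named 52403 of 52636 genes, and the position of Pnp came from RefSeq. Coordinates are those of the count files (GRCm38, counted from 1). Software was R 4.3.3, edgeR 4.0.16, limma 3.58.1 and data.table (1.17.8). Low counts were filtered by filterByExpr (minimum count 10), at a loss of 0.0539% to 0.0881% of the counts. TMM factors were 0.961 to 1.03. CPM are counts per 1000000, with library totals scaled by these factors, and log2 CPM used a prior count of 2. A single quasi-likelihood model of 4 group means, with robust estimation, covered all libraries, and 6 two-sided contrasts were tested. A gene was called at a Benjamini-Hochberg adjusted p below 0.05 over all genes tested. Standard errors were derived from the log2 difference and its F statistic, and intervals are 95% intervals. The procedure was tested on simulated data. edgeR's current quasi-dispersion method was kept after counts of calls under it and under the older method had been seen.

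In each of the 55 pairs of libraries within a group, counts differed beyond sampling noise (5.04 to 33.6 as chi-square over its degrees of freedom), so no library was treated as a copy of another. That does not show that they stem from different animals. Each library was counted as 1 replicate. Depths of 19.1 to 25.8 M counts limit the precision of genes with few counts, such as Adora2a, with as few as 15 in a library, and Xdh, with as few as 76. Named genes were the members, up to 4 genes with the lowest p in each of 8 pathway lists, the 8 genes most correlated with Xdh, and genes of 9 lists of cell type markers, of which 1 striatal marker is not reported here by itself. Rasal2, Galnt15 and B4galt4 were named after their values were seen. The members and lists were chosen with earlier results of these data known. Alternatives were DESeq2 1.42.0, other scaling, no filter, removal of trends with gene length and GC content (5 spline terms each), marker scores as covariates, fewer groups and fewer libraries.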

Additional observations from a re-analysis of the deposited data

Results flagged for a closer look

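Of the 32 combinations of a measured gene and a group that were checked for a library far from the others, 3 had one, where chance gives about 1 in 20. Adora2a in WT hypoxia replicate 2 was at 4.39 CPM, and the nearest library of the group was at 2.2 CPM. Nt5e in WT normoxia replicate 3 was at 6.33 CPM, with the nearest at 5.25 CPM. Gda in P301S hypoxia replicate 1 was at 268 CPM, with the nearest at 238 CPM. No library of Xdh stood apart from its group in this way.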

How the results depend on the processing

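The log2 difference of Xdh with hypoxia stayed above 0 under every alternative run, from 0.80 to 0.997 in WT, 0.93 to 1.32 in P301S and 0.86 to 1.11 averaged over the genotypes. Because Xdh was chosen by this difference in the same libraries, that is no independent evidence. For P301S against WT in normoxia the log2 difference of Xdh ran from -0.00093 to 0.26, crossing 0 without P301S normoxia replicate 1. Of 1049 alternative values of members not called, 69 changed sign. By more than the spread between libraries did Gda's interaction (-0.12 without the 6 libraries lowest in choroid plexus markers) and, with length and GC trends removed, Adk with hypoxia in WT (-0.067) and its interaction (0.16). This rule was set after the sign changes were counted. The first 2 values lay within the 95% intervals of the main fit (-0.20 to 0.33 and -0.072 to 0.11), and that of Adk's interaction lay outside (-0.15 to 0.12). The cause of the sign changes was not tested. Adk in normoxia was the 1 member called under an alternative. No paired analysis was possible because replicate numbers were given in accession order.

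Counts of genes called are given in the order WT hypoxia, P301S hypoxia, averaged hypoxia, P301S against WT in normoxia, the same in hypoxia, and interaction. They were 13, 73, 236, 1130, 333 and 7. Without the filter they were 4, 38, 151, 682, 213 and 4. With length and GC trends removed they were 20, 190, 428, 437, 133 and 0, and the share called higher with hypoxia went from 32 of 73 to 137 of 190 in P301S and from 116 of 236 to 309 of 428 in the average. Without the 6 libraries they were 0 (1013 at an unadjusted p below 0.05), 45, 60, 389, 16 and 0. DESeq2 gave 151, 363, 651, 1639, 854 and 52. With only the groups compared, WT hypoxia had 4 and the genotypes 368 and 182. The choroid plexus score as a covariate gave 46 in P301S, 143 averaged and 11 for the interaction. Alternatives added after seeing the data were the endothelial score (8 in P301S, 149 averaged, 0 for the interaction), the striatal score (3 in WT, 458 averaged, 38 for the genotypes in hypoxia, 0 for the interaction) and edgeR's older quasi-dispersion method (0 for the interaction, with 1650 at an unadjusted p below 0.05). Leaving out 1 library gave 2 to 29, 7 to 154, 83 to 371, 365 to 2069, 91 to 618 and 0 to 13. The lowest of these came without any of 5 libraries for WT hypoxia and any of 13 for the interaction, and otherwise without P301S normoxia replicates 3, 4 and 2 and WT hypoxia replicate 2. The highest came without WT hypoxia replicate 2, P301S normoxia replicate 1, WT normoxia replicates 4 and 1, P301S hypoxia replicate 6 and P301S normoxia replicate 1.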
